A study of Homo sapiens with 6 samples.

Results

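The genes described here encode the machinery that imports proteins into mitochondria. They were the genes of the deposited table whose names begin with TOMM or TIMM followed by a digit, together with SAMM50, MTX1, MTX2, PMPCA, PMPCB, HSPA9, GRPEL1, PAM16, DNAJC19, CHCHD4 and GFER. Of 58 names that matched, 22 were left out because they end in P plus digits, namely 21 pseudogenes and the read-through gene TIMM23B-AGAP6, and TOMM20L was left out because its mean over the libraries was under 1 TPM. This left 35 of the 60664 genes in the table, each above 1 TPM in every library. The cells were 67R, which are ASK120067-resistant NCI-H1975 lung adenocarcinoma cells made by exposure to rising doses of this EGFR inhibitor, and all 6 libraries came from them. The control libraries (siNC, labelled NC, n = 3) came from cells given a negative control siRNA and the others (siBCAT1, labelled BCAT1 knockdown, n = 3) from cells given siRNA against BCAT1, the cytosolic transaminase of branched-chain amino acids. The study's methods describe a pair of BCAT1 siRNAs and give the name siBCAT1, which the library titles carry, to the second, so these libraries stand for 1 siRNA. Whether the replicates were separate cultures is not given in the labels. The p-values therefore set each difference against the spread between these libraries, which may be technical. The comparison asks how the transcripts of the import machinery differ after BCAT1 knockdown in the resistant cells.

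Nearly all mitochondrial proteins are made in the cytosol and pass through the TOM complex of the outer membrane, whose receptors TOMM20, TOMM22 and TOMM70 hand precursors to the channel TOMM40. From there the SAM complex inserts barrel proteins into the outer membrane, the MIA relay of CHCHD4 and GFER folds small cysteine-rich proteins between the membranes, small TIM chaperones carry hydrophobic carriers to the TIM22 complex, and the TIM23 channel with the PAM motor draws proteins with a presequence into the matrix. There the processing peptidase PMPCA/PMPCB removes the presequence.

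Values are TPM, transcript abundances that the authors scaled for gene length and library total, so that levels can be compared between genes. They summed to 992512 to 995593 per library. The depth is unknown because TPM keeps no counts, and fewer cells and less RNA per cell cannot be told apart in them. Fold changes are differences in mean log2(TPM + 1), siBCAT1 over siNC, tested with limma and adjusted by the Benjamini-Hochberg method over the 14286 genes that averaged 1 TPM or more, and the threshold was an adjusted p of 0.05. An exact permutation test (two-sided) on 3 and 3 values could reach no p below 0.1 for any gene. BCAT1 itself was at 42.7, 42.2 and 29.8 TPM in siNC against 8.78, 7.1 and 8.0 TPM in siBCAT1 cells (log2 fold change -2.12, standard error 0.15, adjusted p = 0.000272 from limma). All 7 epithelial markers had a mean of at least 1 TPM. Their summed level, most of it KRT8, KRT7 and KRT18, was 2564 to 2969 TPM in siNC against 1664 to 1951 TPM in siBCAT1 cells. CDH1 (log2 fold change -2.41, adjusted p = 0.00881 from limma), KRT19 (-1.41), KRT7 (-0.91), KRT8 (-0.47) and KRT18 (-0.33, adjusted p = 0.0234) were lower. EGFR (-0.41, adjusted p = 0.0643) and EPCAM (0.56, adjusted p = 0.0732) did not pass, and EPCAM went the other way. Among the lung adenocarcinoma markers MUC1 was detected, while NKX2-1, NAPSA and SFTPB stayed at or under 0.33 TPM in every library. Of 8 markers of immune, endothelial and stromal cells, only CD68, COL1A1 and ACTA2 had a mean of at least 1 TPM, with CD3E and DCN at 0 in every library. The summed level of the 8 was 184 to 231 TPM in siNC against 211 to 277 TPM in siBCAT1 cells, most of it ACTA2. CD68 was higher (log2 fold change 0.71, adjusted p = 0.00342) and COL1A1 lower (-0.68, adjusted p = 0.0197) in siBCAT1 cells, and ACTA2 did not pass (0.22, adjusted p = 0.361). The part of these differences in the results below was not tested.

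Of the 35 import genes, 14 were higher and 4 lower in siBCAT1 than in siNC cells, which is 40.0% and 11.4% of them. Over all 14286 tested genes 16.7% were higher and 10.4% lower. The median log2 fold change of the import genes was 0.21, against 0.04 over all tested genes, and without TOMM22 it was 0.21 with 13 of 34 genes higher and 4 lower. The siNC and siBCAT1 libraries did not overlap for 17 import genes that were higher and 5 that were lower, where the background was 26.1% and 18% of all tested genes. Summed over the 35 genes, the level was 3278, 3676 and 3346 TPM in siNC replicates 1, 2 and 3 and 3780, 3873 and 3829 TPM in siBCAT1 replicates 1, 2 and 3. All 3 siBCAT1 sums were above the highest siNC sum. The siBCAT1 mean was 11.5% above the siNC mean, and without TOMM22 it was 9.71% above it. Among the siNC libraries, replicate 2 had the highest value for 27 of the 35 genes, and the same count over all tested genes is not given here. Over all tested genes siNC replicate 2 correlated with the siBCAT1 libraries by 0.953 to 0.958. For siNC replicates 1 and 3 this was 0.943 to 0.948. Without siNC replicate 2, 17 import genes were higher and 3 lower, and with any other library left out 8 to 10 were higher and 3 lower. Over all tested genes 2276 were higher without siNC replicate 2 and 1435 to 1592 without any other library, against 2382 in the reported fit. Lower genes numbered 1430 and 796 to 981, against 1483. The split of the import genes also moved with the scaling. It was 8 higher and 5 lower under quantile normalization, where MTX1 was added, and 9 and 4 after correction for gene length. Over all tested genes these settings gave 2046 and 2225 higher and 1865 and 1491 lower genes.

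**Figure D1:**
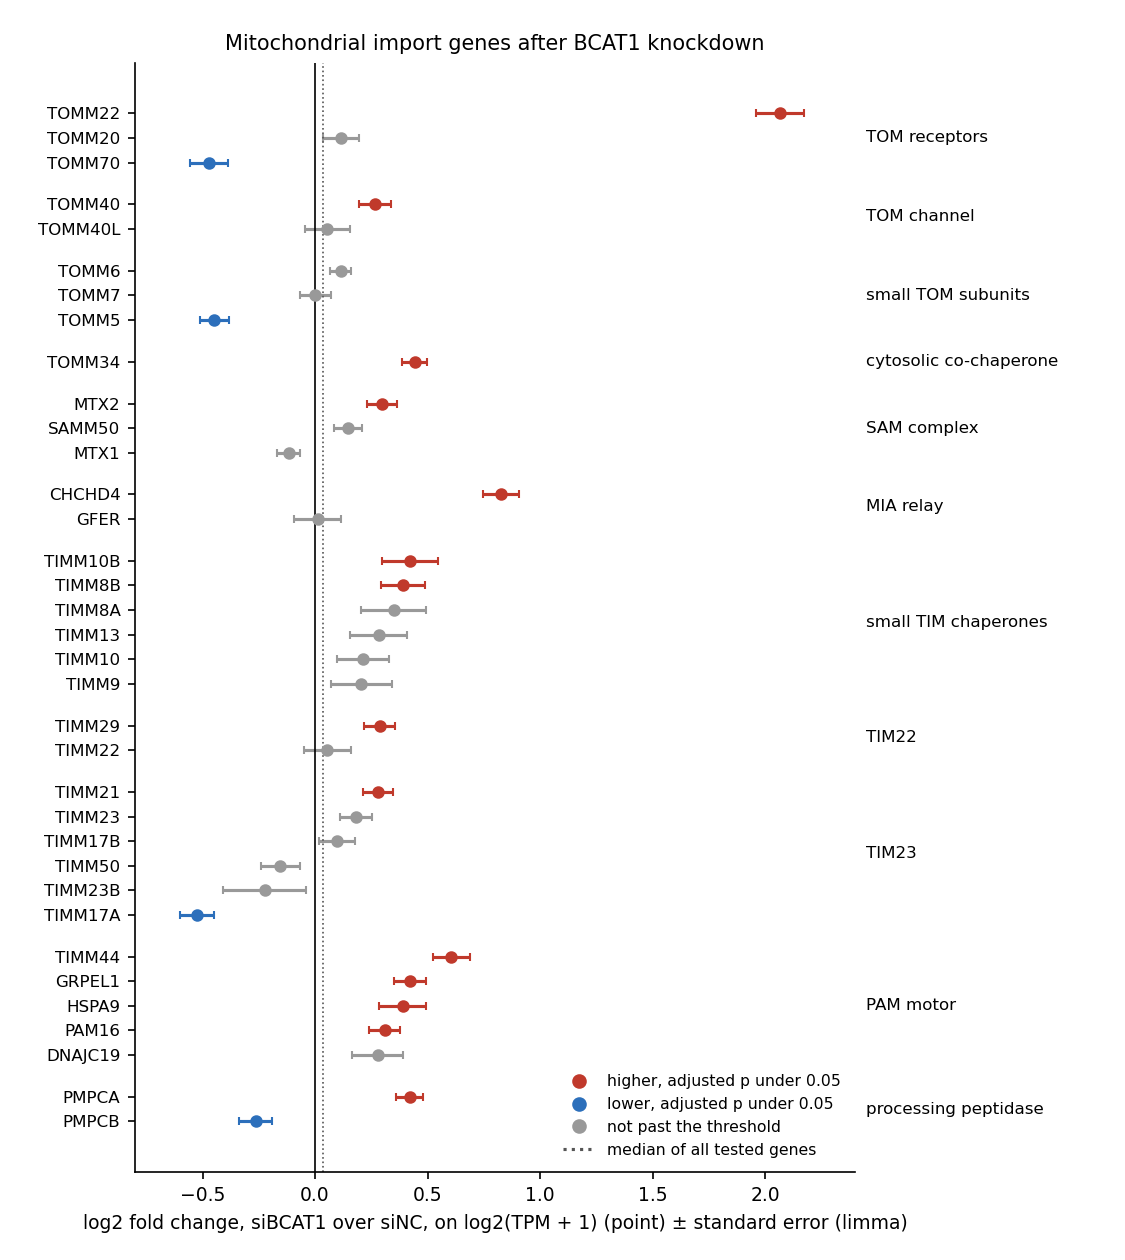
Log2 fold change of each of the 35 import genes, siBCAT1 over siNC on the log2(TPM + 1) scale (x axis), with the standard error from limma as bars and genes grouped by role (y axis), and the dotted line is the median of all 14286 tested genes, 0.04. TOMM22 stands at 2.07, the next gene, CHCHD4, at 0.83, and 14 red and 4 blue points passed an adjusted p of 0.05.

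Promoter sequences of the import genes were searched for short motifs. They were taken from RefSeq (GRCh38.p14), from 250 bases before to 50 after the start of each gene, and were found for all 35 genes. The words searched on both strands were GCATGCGC, the core of the site of NRF1, a known regulator of nuclear genes for mitochondrial proteins, CCGGAAGT for ETS factors, TGATGCAA for ATF4, TGACGTCA for CREB and related factors, and CCAAT for NF-Y. The NRF1 word was in 5 of the 35 promoters (14.3%) and in 3.05% of all 35116 promoters, the ETS word in 7 (20.0%, against 4.14%), the ATF4 word in 2 (5.71%, against 0.866%), the CREB word in 0 (against 1.85%) and CCAAT in 11 (31.4%, against 34.6%). The import promoters were also richer in G and C, with a median of 64.7% against 58.7%, and the part of this in the counts of words was not tested. The 35116 promoters were not limited to the tested genes, so the shares are not a comparison with expressed genes alone. The promoters with the NRF1 word are shown as windows of 30 bases, on the strand of the gene, with the word (or its reverse complement, as in PAM16) in capitals, since they hold called and uncalled genes side by side.
CHCHD4, chr3:14125003-14125032, minus strand: cagtgtttctGCGCATGCGCgcggcgagac
PAM16, chr16:4351348-4351377, minus strand: actgaggcaatGCGCATGCccagcgccgta
TIMM10B, chr11:6481488-6481517, plus strand: agtggcgtacgGCATGCGCcggtggcgtga
TIMM9, chr14:58427641-58427670, minus strand: agacacaacacGCATGCGCgccaagaaact
TOMM7, chr7:22822954-22822983, minus strand: atcgcaaccacGCATGCGCctactactgcc

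Of these 5 genes, CHCHD4, PAM16 and TIMM10B were higher in siBCAT1 cells and TIMM9 and TOMM7 did not pass. As background, 40.0% of the import genes and 16.7% of all tested genes were higher. The call of TIMM10B was lost under 10 of 15 processing alternatives and that of PAM16 under 1. A link between the NRF1 word and the fold change was not tested. In CHCHD4 the word occurs on both strands in overlap, as GCGCATGCGC, beginning 152 bases before the start. The 2 largest risers are shown for comparison over the 250 bases before the start, and TOMM22 holds none of the 5 words, which says only that these letters are not in this window.
TOMM22, chr22:38681707-38681956, plus strand: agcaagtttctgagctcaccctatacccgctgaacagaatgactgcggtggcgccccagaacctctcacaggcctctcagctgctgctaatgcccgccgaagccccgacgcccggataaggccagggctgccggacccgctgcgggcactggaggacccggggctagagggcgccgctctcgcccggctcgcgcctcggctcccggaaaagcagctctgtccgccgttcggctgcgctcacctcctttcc
CHCHD4, chr3:14124871-14125120, minus strand: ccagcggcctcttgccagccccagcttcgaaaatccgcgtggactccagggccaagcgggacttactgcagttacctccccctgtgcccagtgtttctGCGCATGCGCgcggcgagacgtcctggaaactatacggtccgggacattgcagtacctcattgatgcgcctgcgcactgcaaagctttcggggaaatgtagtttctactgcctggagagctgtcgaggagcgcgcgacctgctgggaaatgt

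The gene with the largest change was TOMM22, the central receptor that joins the presequence and carrier routes at the outer membrane (ENSG00000100216, chromosome 22, 38681948 to 38685421, plus strand, GRCh38). It was at 16.6, 22.1 and 17.7 TPM in siNC against 83.5, 79.8 and 80.7 TPM in siBCAT1 cells, in the order of replicates 1, 2 and 3 that is kept for every gene below. The siNC libraries lay close to each other far below the siBCAT1 libraries. Its mean was 18.8 ± 2.94 TPM in siNC against 81.3 ± 1.93 TPM in siBCAT1 cells (SD, n = 3 each), a ratio of 4.33 (log2 fold change 2.07, standard error 0.11, adjusted p = 0.000138 from limma), and its log2 fold change ranked 26 from the highest among 14286 tested genes. TOMM22 was singled out with this value known, so the test is a description of its size. Its fold change lay between 1.99 and 2.18 under 15 processing alternatives, all past the threshold. The 6 annotated TOMM22 pseudogenes in the table were at 0 in every library, and no annotated gene overlapped it.

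The other receptors did not follow it. TOMM20, the main receptor for presequences, was at 83.3, 96.2 and 82.7 TPM in siNC against 94.6, 100.2 and 89.4 TPM in siBCAT1 cells, and the groups overlapped (log2 fold change 0.12, standard error 0.08, adjusted p = 0.328). TOMM70, the receptor for carrier proteins and for cytosolic chaperones, was lower, at 43.6, 47.6 and 40.6 TPM in siNC against 32.9, 32.1 and 29.2 TPM in siBCAT1 cells (log2 fold change -0.47, standard error 0.09, adjusted p = 0.00791). Each TOMM70 value in siBCAT1 cells was below each value in siNC cells, and this call was lost only when no filter on low values was used (adjusted p = 0.0637). In siNC cells the order of the receptors was TOMM20, TOMM70 and TOMM22, with TOMM22 at 0.214 ± 0.0155 of the level of TOMM20 and 0.426 ± 0.0429 of the level of TOMM70 (SD, n = 3). In siBCAT1 cells TOMM22 was at 0.861 ± 0.0567 of TOMM20 and 2.60 ± 0.153 times TOMM70 (SD, n = 3), so that TOMM22 and TOMM70 changed places. Among the 35 genes, TOMM22 ranked 31 or 32 from the highest in the siNC libraries and 17 or 18 in the siBCAT1 libraries.

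The channel protein TOMM40 was modestly higher. It was at 189.6, 214 and 198 TPM in siNC against 226, 239.6 and 259 TPM in siBCAT1 cells (log2 fold change 0.27, standard error 0.07, adjusted p = 0.0309), with no overlap between groups. This call was lost under 10 of 15 alternatives, with an adjusted p of up to 0.200. Its paralog TOMM40L lay between 11.9 and 14.7 TPM in both groups (log2 fold change 0.05, standard error 0.10, adjusted p = 0.724). Reads shared with TOMM40 pseudogenes, of which 3 had a value above 0, make the level of TOMM40 uncertain, although their levels were at most 5.27 TPM. Relative to the channel, TOMM22 was at 0.0934 ± 0.00879 of TOMM40 in siNC and 0.338 ± 0.0296 in siBCAT1 cells (SD, n = 3).

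Among the small TOM subunits, which stabilise the complex, TOMM5 was lower, at 237, 273 and 253 TPM in siNC against 185, 179.6 and 194 TPM in siBCAT1 cells (log2 fold change -0.45, standard error 0.07, adjusted p = 0.00335). Every siBCAT1 value of TOMM5 was below every siNC value, and the call held under all 15 alternatives. The TOMM5 gene overlaps AL138752.2 on the same strand, and reads shared with it make the level of TOMM5 uncertain. TOMM6 and TOMM7 were the most abundant import transcripts. The level of TOMM6 is uncertain in the same way, since its gene overlaps AL365205.1 on the same strand. TOMM6 was at 571 to 615 TPM in siNC against 632 to 657 TPM in siBCAT1 cells (log2 fold change 0.11, standard error 0.05, adjusted p = 0.107), and TOMM7 at 367 to 430 and 381 to 404 TPM (log2 fold change 0.0017, standard error 0.07, adjusted p = 0.989). Neither passed the threshold, and the sign of TOMM7 turned under scaling by median ratios or quantiles and after length correction. TOMM34, a cytosolic co-chaperone that is not part of the complex, was higher, at 81.7, 83.6 and 86.6 TPM in siNC against 119, 111 and 113 TPM in siBCAT1 cells (log2 fold change 0.44, standard error 0.06, adjusted p = 0.00202), and passed under all 15 alternatives.

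**Figure D2:**
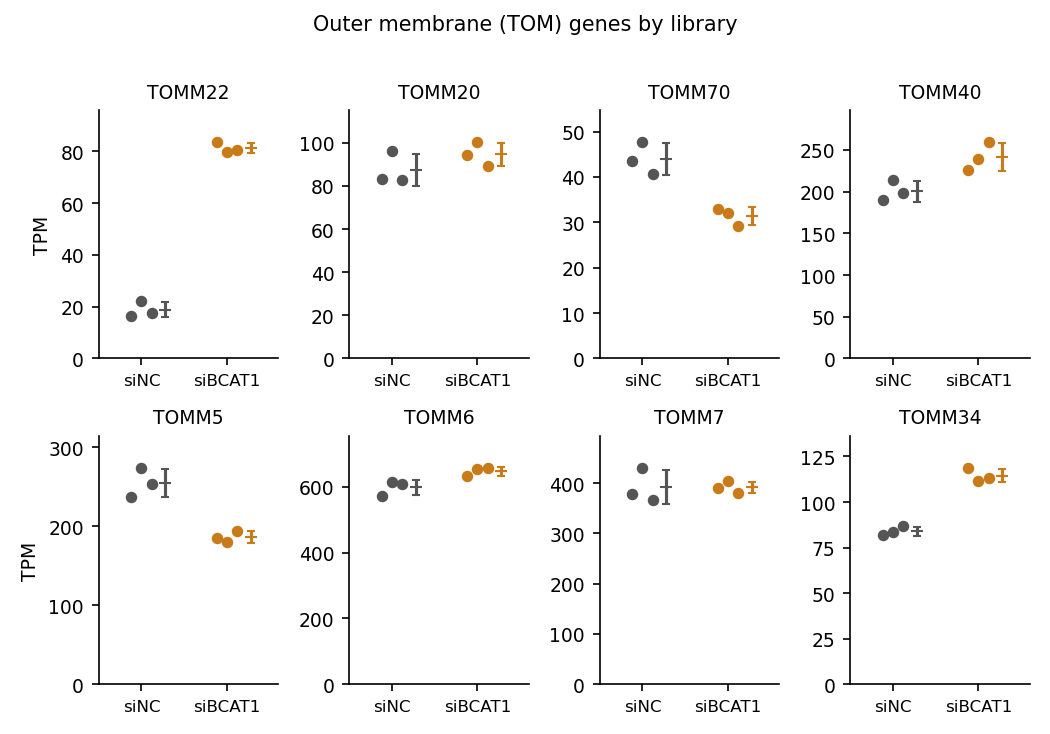
TPM (y axis, from 0) of 8 outer membrane and related genes in the 3 siNC (grey) and 3 siBCAT1 (orange) libraries, with points for replicates 1, 2 and 3 from left to right and the mean ± SD beside them. TOMM22 lay between 16.6 and 22.1 TPM in siNC and between 79.8 and 83.5 TPM in siBCAT1 cells, TOMM70 and TOMM5 were lower, and TOMM20 and TOMM7 overlapped.

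In the SAM complex, which assembles barrel proteins in the outer membrane, only the small change of MTX2 passed. MTX2, a metaxin, was at 37.3, 35.4 and 34.5 TPM in siNC against 44.2, 44.7 and 43.5 TPM in siBCAT1 cells (log2 fold change 0.30, standard error 0.07, adjusted p = 0.0153). SAMM50, the barrel-forming subunit, was at 66.5, 69.3 and 64.4 TPM in siNC against 72.6, 76.5 and 72.9 TPM in siBCAT1 cells, and MTX1, the other metaxin, at 117, 115 and 116 TPM in siNC against 106, 110.0 and 106 TPM in siBCAT1 cells. Neither of these groups overlapped, with SAMM50 above and MTX1 below the siNC values, but SAMM50 (log2 fold change 0.15, standard error 0.06, adjusted p = 0.116) and MTX1 (log2 fold change -0.12, standard error 0.05, adjusted p = 0.135) did not pass. The SAMM50 gene overlaps PNPLA3 and PARVB on the same strand, and reads shared with them make its level uncertain. The call of MTX2 was lost after length correction (adjusted p = 0.0594), after correction for length and GC content (0.0833) and without siBCAT1 replicate 2 (0.0525).

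The MIA relay differed between its members. CHCHD4, the oxidoreductase that gives incoming proteins their disulfide bonds (ENSG00000163528, chromosome 3, 14112077 to 14124870, minus strand), was at 15.1, 15.9 and 15.5 TPM in siNC against 29.2, 26.2 and 29.5 TPM in siBCAT1 cells. Its levels were nearly the same in all siNC libraries, and the lowest siBCAT1 value was well above them. The mean was 15.5 ± 0.41 TPM in siNC against 28.3 ± 1.81 TPM in siBCAT1 cells (SD, n = 3 each), a ratio of 1.83 (log2 fold change 0.83, standard error 0.08, adjusted p = 0.000765), and it passed under all 15 alternatives. GFER, the sulfhydryl oxidase that re-oxidises CHCHD4, was at 22.97, 27.5 and 23.1 TPM in siNC against 23.7, 27.4 and 23.03 TPM in siBCAT1 cells, with the same range in both groups (log2 fold change 0.01, standard error 0.11, adjusted p = 0.9501, with a sign that turned under median-ratio and quantile scaling and after length correction). The level of CHCHD4 was 0.636 ± 0.05004 of that of GFER in siNC and 1.16 ± 0.175 of it in siBCAT1 cells (SD, n = 3). CHCHD4 was above GFER in siBCAT1 replicates 1 and 3 and below it in replicate 2.

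All 6 small TIM chaperones had a fold change above 0, between 0.21 and 0.42 on the log2 scale, and 2 of them passed. Of all 14286 tested genes, 7771 had a fold change above 0 and 16.7% passed as higher. TIMM8B was at 127, 162 and 137 TPM in siNC against 172, 198 and 187 TPM in siBCAT1 cells (log2 fold change 0.39, standard error 0.10, adjusted p = 0.0259), and its gene overlaps SDHD on the opposite strand. TIMM10B was at 20.5, 22.7 and 16.2 TPM in siNC against 26.8, 27.7 and 25.4 TPM in siBCAT1 cells (log2 fold change 0.42, standard error 0.12, adjusted p = 0.0429). Both were free of overlap between groups, but each lost its call under 10 of 15 alternatives, and the highest adjusted p was 0.221 for TIMM8B and 0.280 for TIMM10B. TIMM10, which pairs with TIMM9 to carry hydrophobic proteins, was at 114, 145 and 105 TPM in siNC against 133, 145 and 141 TPM in siBCAT1 cells (log2 fold change 0.21, standard error 0.11, adjusted p = 0.209). Here siNC replicate 2 reached the siBCAT1 values, and without this library TIMM10 passed, with an adjusted p of 0.0135. TIMM9 (adjusted p = 0.304) and the pair TIMM8A (0.117) and TIMM13 (0.1403), which form another such chaperone complex, overlapped between the groups. Without siNC replicate 2 the adjusted p of TIMM8A was 0.0105, and without siBCAT1 replicate 2 that of TIMM9 was 0.0321.

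Of the TIM22 carrier translocase, TIMM29, an accessory subunit, was higher, at 44.3, 47.9 and 44.1 TPM in siNC against 58.8, 53.4 and 54.8 TPM in siBCAT1 cells (log2 fold change 0.29, standard error 0.07, adjusted p = 0.0233). The channel subunit TIMM22 was at 22.3, 26.3 and 22.02 TPM in siNC against 24.1, 26.99 and 22.4 TPM in siBCAT1 cells (log2 fold change 0.06, standard error 0.11, adjusted p = 0.733), and the groups overlapped almost fully, with a sign that turned under quantile normalization. The call of TIMM29 was lost under 8 of 15 alternatives, with an adjusted p of at most 0.0851.

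The TIM23 channel of the inner membrane was mixed, with 1 gene higher, 1 lower and 4 that did not pass. TIMM17A, a channel subunit with a paralog in TIMM17B, was lower, at 86.2, 90.03 and 77.97 TPM in siNC against 61.3, 55.4 and 58.8 TPM in siBCAT1 cells (ENSG00000134375, chromosome 1, 201955491 to 201970661, plus strand). This was the largest fall among the import genes (log2 fold change -0.52, standard error 0.08, adjusted p = 0.00319), the groups did not overlap and it held under all 15 alternatives. TIMM17B was at 88.9 to 102 TPM in siNC against 96.1 to 109 TPM in siBCAT1 cells (log2 fold change 0.10, standard error 0.08, adjusted p = 0.4097). The level of TIMM17A was 0.878 ± 0.126 of that of TIMM17B in siNC and 0.564 ± 0.0228 of it in siBCAT1 cells (SD, n = 3). TIMM21, which links TIM23 to the respiratory chain, was higher, at 40.9, 45.7 and 43.3 TPM in siNC against 52.6, 52.8 and 52.5 TPM in siBCAT1 cells (log2 fold change 0.28, standard error 0.07, adjusted p = 0.0216), and lost its call under 8 of 15 alternatives, with an adjusted p of at most 0.0789.

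TIMM23, the other core subunit, was at 109, 121 and 111 TPM in siNC against 123, 139.7 and 125 TPM in siBCAT1 cells. Its groups did not overlap, but the change did not pass (log2 fold change 0.18, standard error 0.07, adjusted p = 0.104). With the replicate number as a block its adjusted p was 0.0333. TIMM23B, a near-identical copy on the same chromosome, was at 5.40 to 7.72 TPM in siNC against 4.14 to 6.53 TPM in siBCAT1 cells (log2 fold change -0.22, standard error 0.18, adjusted p = 0.401), and reads shared between the copies and the read-through gene TIMM23B-AGAP6 make both uncertain. TIMM50, the receptor that takes presequences from the TOM complex, was at 97.5, 117 and 102 TPM in siNC against 95.5, 99.7 and 88.3 TPM in siBCAT1 cells, and the groups overlapped (log2 fold change -0.15, standard error 0.09, adjusted p = 0.227).

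The PAM motor, which pulls precursors into the matrix, had the most calls of the roles, 4, all higher. The roles held 1 to 6 genes, and 40.0% of the import genes and 16.7% of all tested genes were higher. Of the 5 genes of the motor, DNAJC19 alone did not pass. The median over the 5 was 0.39 on the log2 scale and the summed level 382 to 454 TPM in siNC against 535 to 562 TPM in siBCAT1 cells. TIMM44, the scaffold that ties the motor to the channel, was at 69.2, 80.9 and 76.1 TPM in siNC against 106, 119.5 and 120.0 TPM in siBCAT1 cells (log2 fold change 0.61, standard error 0.08, adjusted p = 0.00237). GRPEL1, the nucleotide exchange factor, was at 64.6, 70.9 and 61.3 TPM in siNC against 91.7, 86.7 and 86.04 TPM in siBCAT1 cells (log2 fold change 0.42, standard error 0.07, adjusted p = 0.00601). HSPA9, the mitochondrial HSP70 that drives the motor, was at 150.2, 201 and 161 TPM in siNC against 223, 229 and 215 TPM in siBCAT1 cells (log2 fold change 0.39, standard error 0.10, adjusted p = 0.03197). For each of these genes the siBCAT1 values lay above all siNC values. TIMM44 and GRPEL1 passed under all 15 alternatives, whereas HSPA9 lost its call under 9, including both median-ratio and quantile scaling, with an adjusted p of up to 0.269. PAM16, a regulator of the motor, was at 66.5, 64.5 and 65.1 TPM in siNC against 78.5, 87.9 and 77.8 TPM in siBCAT1 cells (log2 fold change 0.31, standard error 0.07, adjusted p = 0.0153), and shares its locus with the read-through gene CORO7-PAM16, so that the authors' counting could split reads between them. The call of PAM16 was lost with no filter on low values (adjusted p = 0.0736). DNAJC19, the J-protein partner of PAM16, overlapped between the groups (log2 fold change 0.28, standard error 0.11, adjusted p = 0.112). Without siNC replicate 2 its adjusted p was 0.0347.

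The 2 subunits of the processing peptidase moved in opposite directions. PMPCA, which binds the presequence, was at 97.6, 108 and 99.6 TPM in siNC against 139, 134 and 136 TPM in siBCAT1 cells (log2 fold change 0.42, standard error 0.06, adjusted p = 0.00292). PMPCB, the catalytic subunit, was at 41.3, 42.6 and 43.2 TPM in siNC against 36.3, 36.6 and 32.5 TPM in siBCAT1 cells (log2 fold change -0.26, standard error 0.07, adjusted p = 0.0357). The groups were apart for both genes, upwards for PMPCA and downwards for PMPCB. The level of PMPCA was 2.404 ± 0.122 times that of PMPCB in siNC and 3.89 ± 0.259 times in siBCAT1 cells (SD, n = 3). PMPCA passed under all 15 alternatives, and PMPCB lost its call under 8 of them, among them all 6 that left out a library, with an adjusted p of at most 0.112. PMPCA overlaps ENTR1 and PMPCB overlaps DNAJC2, each on the opposite strand. TOMM70 (with LNP1), TOMM34 (with PABPC1L) and TIMM10B (with ARFIP2) also overlap a gene on the opposite strand. Whether the authors counted by strand is not given in the sources used here.

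**Figure D3:**
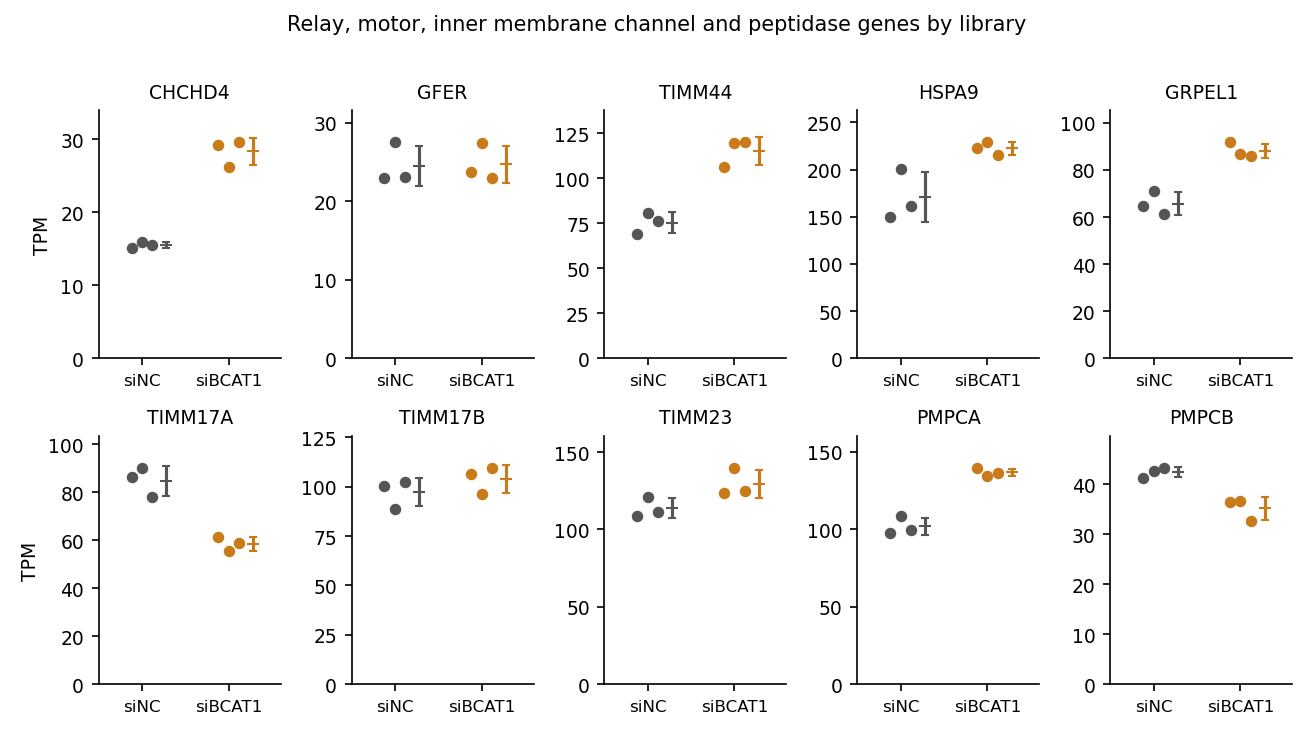
TPM (y axis, from 0) of 10 genes of the relay, motor, inner membrane channel and peptidase in the 3 siNC (grey) and 3 siBCAT1 (orange) libraries, with the mean ± SD beside the points. The pairs CHCHD4 and GFER, TIMM17A and TIMM17B, and PMPCA and PMPCB each hold a gene whose groups were apart beside a partner that stayed level or moved the other way.

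Of the 18 called import genes, 8 passed the threshold under all 15 alternatives, namely TOMM22, CHCHD4, TIMM44, TOMM34, GRPEL1 and PMPCA, which were higher, and TIMM17A and TOMM5, which were lower. None of the 18 changed sign under any of them. No such count over all called genes is set beside these, so they describe the import genes alone. Across the 35 genes the fold change had little relation to the mean level (Spearman's rho -0.0087) or to gene length (0.012) and a weak positive one to the GC content of the transcript (0.24), given as a description over genes that share the same 6 libraries. The 35 genes were more abundant than the tested genes as a whole, with a median of 71.6 against 13.9 TPM, and shorter, with a median length of 1692 against 2705 bases.

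Genes tied to import but outside the rule were taken from a list of 36, of which 35 were tested. Of these, 11 were higher (31.4%) and 1 was lower (2.86%), against 16.7% and 10.4% of all tested genes. Their median was 0.18 on the log2 scale, against 0.04 over all tested genes. The 4 with the largest changes were all higher. LONP1, the ATP-dependent protease of the matrix, was at 64.5, 58.4 and 62.2 TPM in siNC against 173, 140.3 and 153 TPM in siBCAT1 cells (log2 fold change 1.32, standard error 0.09, adjusted p = 0.000229). HSPD1, the matrix chaperonin that folds imported proteins, was at 290.4, 379 and 314 TPM in siNC against 627, 609.8 and 644 TPM in siBCAT1 cells (log2 fold change 0.94, standard error 0.09, adjusted p = 0.000828), and its co-chaperonin HSPE1 was also higher (log2 fold change 0.31, standard error 0.08, adjusted p = 0.0256). HSP90AA1, a cytosolic chaperone that delivers precursors to TOMM70, was at 327, 426 and 362 TPM in siNC against 671, 639 and 723 TPM in siBCAT1 cells (log2 fold change 0.87, standard error 0.10, adjusted p = 0.00122). GRPEL2, the paralog of GRPEL1, was at 6.13, 7.89 and 5.03 TPM in siNC against 11.7, 10.01 and 9.45 TPM in siBCAT1 cells (log2 fold change 0.65, standard error 0.16, adjusted p = 0.0251). For all 5 genes the groups did not overlap. Of the 35 tested genes in the list, 14 were free of overlap with siBCAT1 above siNC and 3 with siBCAT1 below. Over all tested genes the shares were 26.1% and 18%. VDAC1, the outer membrane porin, was the gene that was lower, at 338, 342 and 332 TPM in siNC against 273, 263 and 270.0 TPM in siBCAT1 cells (log2 fold change -0.33, standard error 0.04, adjusted p = 0.00226), and it was named, as was HSPE1, after the values were seen. The count of higher genes in this list was 13 without siNC replicate 2, 4 without siBCAT1 replicate 2, 5 or 6 without any of the other libraries, and 3 with no filter on low values. The count of lower genes was 3 under quantile normalization and after length correction.

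Other sets of nuclear genes for mitochondrial proteins were set beside the import genes. Of 80 tested mitochondrial ribosomal protein genes, 34 were higher (42.5%) and 3 lower (3.75%). Their median of 0.21 on the log2 scale was that of the import genes to 2 decimals. The largest changes were those of MRPS36 (-1.01, adjusted p = 0.000592), which is also known as a subunit of the α-ketoglutarate dehydrogenase complex, MRPS34 (0.88, 0.000997), MRPL15 (0.83, 0.00139) and MRPL49 (0.70, 0.00269). Of 84 tested genes of the respiratory chain and ATP synthase, 12 were higher (14.3%) and 5 lower (5.95%), with a median of -0.00087. Among the larger changes were those of NDUFA12 (-1.05, adjusted p = 0.000265), which belongs to complex I, the read-through gene ATP5MF-PTCD1 (0.68, 0.0404) and ATP5IF1 (0.67, 0.00127), the inhibitor of ATP synthase. The differences between the sets were not tested. Transcripts of the mitochondrial genome made up 10.2% to 10.4% of the TPM in siNC and 9.33% to 10.2% in siBCAT1 cells.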

How the data were processed

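The transcriptomes of 67R cells were read from 6 libraries, 3 siNC and 3 siBCAT1, grouped and numbered by their titles. Per the labels and the study's methods, stranded mRNA libraries were cleaned with fastp, mapped with HISAT2 (build GRCh38 in the submitters' processing notes) and assembled with StringTie. The versions and the annotation are not given in the sources used here. The authors deposited TPM values to 2 decimals for each gene in each library beside the gene's length. The unit was read from the values. TPM holds no depth, so no counting error can be given and the precision rests on the spread between replicates.

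For the 14286 genes that averaged 1 TPM or more, log2(TPM + 1) was compared two-sided by limma 3.58.1 (eBayes, trend on) under R 4.3.3, and p-values were adjusted by Benjamini-Hochberg. The fit was checked on simulated data first. The members, roles and lists were chosen with earlier results of these data known. Values per library were given for members past the threshold and for the core subunits of each complex, and for the other lists the 4 largest changes past the threshold were named, except 1 gene that is not reported here. Gene positions and overlaps came from GENCODE 29 (GRCh38) and promoters from RefSeq (GRCh38.p14). The alternatives were no filter, a 5 TPM minimum mean, a 0.1 TPM pseudocount, median-ratio scaling, quantile normalization, a loess correction (span 0.5) for length, limma without trend, the replicate number as a block and each library left out. A correction for length and GC content of the longest transcript (available for 99% of the tested genes) was chosen after the data were seen. Figures were drawn with matplotlib 3.10.9 in Python 3.11.15.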

Additional observations from a re-analysis of the deposited data

How the results depend on the processing

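BCAT1 was lower under all 15 alternatives, by -2.28 to -2.03 on the log2 scale with a library left out. With no filter on low values 962 of all genes were higher and 531 lower, with 7 and 2 of the import genes and 3 import-linked genes higher, since the adjustment then covers 60664 genes. Quantile normalization gave 8 higher import genes, a median of 0.12 (0.11 without TOMM22) and 3 lower import-linked genes. The length correction gave 9 higher import genes, a median of 0.15 (0.15 without TOMM22) and 3 lower import-linked genes, and the length and GC correction 9, 0.13, 0.12 and 2. In the same order, 2046, 2225 and 2277 of all tested genes were higher. Why these counts moved was not tested. With a library left out, 1435 to 2276 of all genes were higher and 796 to 1430 lower, import genes were higher in 8 to 17 and lower in 3 cases, their median was 0.17 to 0.29 (0.17 to 0.26 without TOMM22), and 4 to 13 import-linked genes were higher and 1 to 2 lower. The lowest import count, 8, was given without siNC replicate 1, without siNC replicate 3 and without siBCAT1 replicate 3.

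The reported fit did not pair libraries by replicate number. The deviations of same-numbered libraries correlated weakly, by 0.084, 0.102 and 0.124, and those of libraries with unlike numbers by -0.081 to -0.013. Each library thus correlated best with its own number, and whether the numbers mark a shared batch was not tested. With the replicate block 2773 of all genes were higher and 1795 lower, 16 import genes were higher and 4 lower, and 2 import-linked genes were lower. The block added TIMM23 and TIMM8A to the import calls.

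Signs turned only for 4 genes that were not called. GFER was at -0.021 under median-ratio scaling, -0.052 under quantile normalization, -0.0065 after length correction and -0.062 to 0.094 with a library left out. TOMM7 was at -0.032, -0.045 and -0.029 under the same 3 settings, -0.068 after length and GC correction and -0.044 to 0.070 with a library left out. TIMM22 was at -0.0011 under quantile normalization and -0.014 to 0.14 with a library left out, and TOMM40L at -0.020 to 0.12.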

Other observations

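The genes next to TOMM22 on chromosome 22 were examined after its value was seen. JOSD1, which encodes a deubiquitinase and ends 122 bases beyond the end of TOMM22 on the opposite strand, went from a mean of 23.7 TPM in siNC to 34.7 TPM in siBCAT1 cells (log2 fold change 0.53, adjusted p = 0.00465 from limma). CBY1, 8094 bases before TOMM22 on the same strand, went from 17.7 to 28.2 TPM (0.64, adjusted p = 0.00694). SUN2, 49304 bases beyond TOMM22 on the opposite strand, went from 44.1 to 54.2 TPM (0.29, adjusted p = 0.0302). AL021707.2, which lies 128 bases before TOMM22 on the opposite strand, was at 2.88 and 3.72 TPM (0.30, adjusted p = 0.415). GTPBP1, 20302 bases beyond TOMM22, was at 21.6 and 21.3 TPM (-0.04, adjusted p = 0.871). Among the 11 tested genes within 100000 bases the log2 fold changes were thus at most 0.64, against 2.07 for TOMM22. Of these 11 only JOSD1, CBY1 and SUN2 passed the threshold, each as higher, where 16.7% of all tested genes were higher.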
